A study of Mus musculus with 6 samples.

Results

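The nuclear genes of the mitochondrial respiratory chain and ATP synthase were followed in livers of mouse pups at postnatal day 10. Their symbols begin with Nduf followed by a, b, c, s or v, with Uqcr, with Cox followed by a digit from 4 to 8 or with Atp5, or are Sdha, Sdhb, Sdhc or Sdhd. The rule matched 92 of 24489 gene entries. Of these, 88 had at least 10 reads summed over the 6 libraries, and 86 of the 88 passed edgeR's filter on low counts and were tested. The 86 comprised 37 genes named for complex I, 4 of complex II, 8 of complex III, 14 of complex IV and 14 of complex V. The rule also took in 7 assembly factors of complex I (Ndufaf1 to Ndufaf7) and Atp5s and Atp5sl, which are no subunits of the ATP synthase. There were 3 Jag1Ndr/Ndr and 3 Jag1+/+ liver libraries, all untreated and on a C3H/C57bl6J background, with RNA from a single lobe of liver. Jag1 encodes a ligand of Notch receptors, and pups homozygous for the Nodder (Ndr) missense allele, which every cell of the animal carries, serve as a mouse model of Alagille syndrome, with few bile ducts and impaired bile flow. The labels do not say that each library is a separate animal, and the livers counted below are libraries. The p-values thus measure the spread between these libraries, part of which may be technical. The comparison asked which of the respiratory chain transcripts differed between the genotypes.

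Complexes I and II pass electrons from NADH and succinate to coenzyme Q, complex III passes them on to cytochrome c, and complex IV hands them to oxygen. Complexes I, III and IV pump protons across the inner mitochondrial membrane, and complex V, the ATP synthase, uses the returning protons to make ATP. Most subunits are encoded in the nucleus and a few in mitochondrial DNA, whose genes were not analysed here. Hepatocytes are rich in mitochondria and draw on this chain for urea synthesis, gluconeogenesis and fatty acid oxidation. Some subunits of complex IV exist as paralogues with a form found in heart and muscle and a form found in liver and most other tissues.

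Depth was 12992592, 59653111 and 17478916 reads in Jag1Ndr/Ndr replicates 1, 2 and 3, and 17548954, 32326157 and 40499166 reads in Jag1+/+ replicates 1, 2 and 3. Counts below are given as CPM, reads relative to library size after TMM scaling, and levels of different genes are compared only in the deposited RPKM, which are also per kilobase. A count of 0 allowed up to 0.231 CPM of unscaled reads in the shallowest library and 0.0503 in the deepest (3 reads, counting error only). Reads of Xist and of Y-linked genes marked Jag1Ndr/Ndr replicate 1 and Jag1+/+ replicates 2 and 3 as male and the other 3 libraries as female. On the first principal component of all genes (51.1% of the variance) the genotypes stood apart, with -58.8, -32.7 and -31.0 in Jag1Ndr/Ndr livers, against 34.0, 38.3 and 50.1 in Jag1+/+ livers. On the second (22.1%), Jag1Ndr/Ndr replicates 1, 2 and 3 lay at 46.7, -43.6 and -19.9. Jag1 itself had 3.01, 5.92 and 5.60 CPM in Jag1Ndr/Ndr livers, against 5.21, 6.82 and 5.87 CPM in Jag1+/+ livers (log2 fold change -0.28 ± 0.28, edgeR adjusted p = 0.638), and a missense allele need not change its own transcript. All 8 hepatocyte markers on a fixed list were found at high read numbers, and 1 of them, Ttr, was lower in Jag1Ndr/Ndr livers (log2 fold change -1.37 ± 0.28, edgeR adjusted p = 0.0238).

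The chain was abundantly transcribed in livers of both genotypes. Summed over the 88 genes, it took 1.04%, 0.722% and 0.949% of all reads in Jag1Ndr/Ndr replicates 1, 2 and 3, against 0.985%, 0.815% and 0.917% in Jag1+/+ replicates 1, 2 and 3. Atp5b, the catalytic beta subunit of the ATP synthase, had the highest level of the 88, 756 ± 159 RPKM in Jag1Ndr/Ndr livers and 686 ± 52.6 RPKM in Jag1+/+ livers (deposited RPKM, mean ± SD, n = 3 each, as for the levels that follow). The next highest were Uqcrq, a small subunit of complex III, with 485 ± 53.1 RPKM in Jag1Ndr/Ndr livers and 435 ± 45.5 RPKM in Jag1+/+ livers, and Atp5g3, which encodes the proton-carrying c subunit of the ATP synthase, with 452 ± 25.1 RPKM in Jag1Ndr/Ndr livers and 426 ± 37.7 RPKM in Jag1+/+ livers. Cox4i1, the ubiquitous form of complex IV subunit 4, had 485 ± 37.6 RPKM in Jag1Ndr/Ndr livers and 371 ± 51.9 RPKM in Jag1+/+ livers. In complex I the highest level was that of Ndufa4, with 264 ± 35.5 RPKM in Jag1Ndr/Ndr livers and 258 ± 43.7 RPKM in Jag1+/+ livers, although its product is now assigned to complex IV. Ndufb9, a subunit of the membrane arm, followed with 196 ± 26.3 RPKM in Jag1Ndr/Ndr livers and 183 ± 26.6 RPKM in Jag1+/+ livers. Of these 6 genes, the mean RPKM of Cox4i1 differed by more than the SD of either genotype, and those of the other 5 by less than the larger SD. In CPM, Cox4i1 had 310 ± 156 in Jag1Ndr/Ndr livers and 260 ± 34.0 in Jag1+/+ livers, a difference smaller than the Jag1Ndr/Ndr SD. The factors named in the column headers are multiplied into the deposited RPKM, whereas edgeR divides by its scaling factors, and the tests below rest on the counts.

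The summed level depended on the scaling. The 88 genes together had 9815, 9810 and 11223 RPKM in Jag1Ndr/Ndr replicates 1, 2 and 3, against 10333, 8344 and 9319 RPKM in Jag1+/+ replicates 1, 2 and 3, a ratio of means of 1.10. In CPM scaled by TMM the sums were 12017, 6047 and 8849 in Jag1Ndr/Ndr livers, against 10012, 8553 and 9596 in Jag1+/+ livers, a ratio of 0.956. By complex, the ratio of summed RPKM ran from 1.03 in complex II to 1.16 in complex IV, and the ratio of summed CPM from 0.874 in complex II to 1.05 in complex IV. With the header factors divided out of the RPKM the ratio was 1.02. The genotypes overlapped on each of these scales, and the side on which the ratio fell changed with the scale.

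No respiratory chain gene passed the test between genotypes. Of the 86 genes tested, 0 were called higher and 0 lower in Jag1Ndr/Ndr livers at an adjusted p under 0.05 (quasi-likelihood test of edgeR, adjusted after Benjamini and Hochberg over 13819 genes). Of all 13819 genes, 7.63% were called, 4.73% higher and 2.90% lower. Of those called, 62.0% of 1054 were thus higher, against 74.3% of 816 with plain library totals, 78.7% of 211 by limma on RPKM with a pseudocount of 1 and 81.1% of 418 with one of 0.1. At an unadjusted p under 0.05 the test picked 2 of the 86, Cox7a1 and Ndufaf6, against 22.5% of all genes. DESeq2 called 1 of the 86, Cox7a1, against 13.7% of all genes. The median log2 fold change of the 86 was -0.04, beside 0.00 for all genes tested, with 36 above and 50 below 0 (49.5% of all genes were below 0). The fitted difference was within 1.2-fold for 67 of the 86 (6854 of all 13819 genes). A miss of the threshold does not show equal levels. The 95% interval of the log2 fold change lay within 2-fold for 72 of the 86 (63.1% of all genes). It lay within 1.5-fold for 4 of the 86, against 3331 of all 13819 genes. The median standard error was 0.28 over the 86 and 0.23 over all genes. The libraries of the genotypes stood apart, with no overlap, for 3 of the 86, Uqcrc2, Ndufaf1 and Ndufaf6, all lower in Jag1Ndr/Ndr livers, against 29.0% of all genes.

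**Figure D1:**
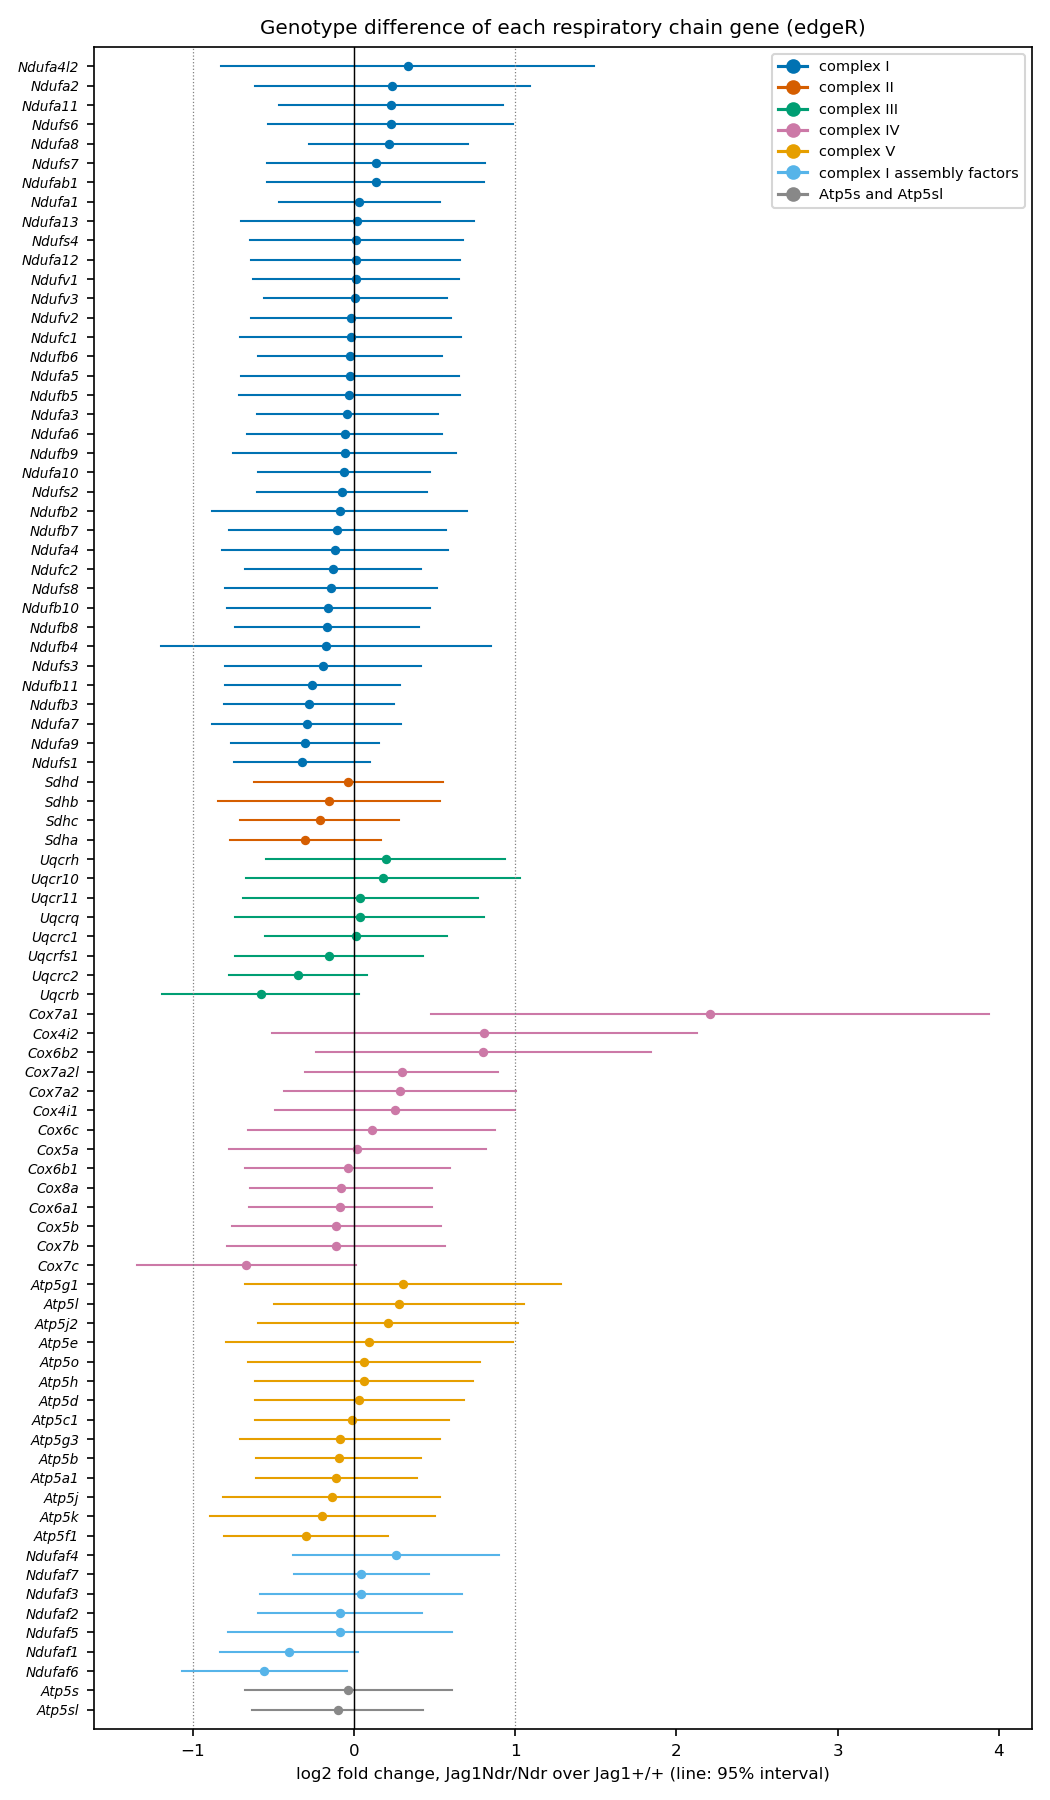
Log2 fold change of Jag1Ndr/Ndr over Jag1+/+ livers for each of the 86 genes tested (points, edgeR) with its 95% interval (lines), grouped by complex and sorted by value within it, and dotted lines at 2-fold. Most points lie close to 0, and Cox7a1, at 2.21, stands farthest from the others with a wide interval.

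In complex I the 37 genes had a median log2 fold change of -0.04, and 32 of them were within 1.2-fold. The smallest adjusted p among them was 0.355 (edgeR), and 34 had a 95% interval within 2-fold. The lowest value was that of Ndufs1, the largest core subunit of the peripheral arm, which measured 95.2, 84.5 and 127 CPM in Jag1Ndr/Ndr replicates 1, 2 and 3, against 132, 119.6 and 132 CPM in Jag1+/+ replicates 1, 2 and 3. Jag1Ndr/Ndr replicates 1 and 2 were the lowest of the 6 libraries, while replicate 3 lay among the Jag1+/+ livers (log2 fold change -0.32 ± 0.18, edgeR adjusted p = 0.355). The highest value was that of Ndufa4l2, a paralogue of Ndufa4 that hypoxia is known to induce, with 2.04, 1.05 and 4.75 CPM in Jag1Ndr/Ndr livers, against 1.97, 1.98 and 2.14 CPM in Jag1+/+ livers. Replicate 3 of Jag1Ndr/Ndr was the highest of the 6 and replicate 2 the lowest, and the Jag1+/+ livers lay between them (log2 fold change 0.33 ± 0.51, edgeR adjusted p = 0.766). Ndufb9 measured 177, 71.3 and 119 CPM in Jag1Ndr/Ndr livers, against 145, 110.0 and 126 CPM in Jag1+/+ livers, a log2 fold change of -0.06 ± 0.30.

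All 4 subunits of complex II, succinate dehydrogenase, had log2 fold changes below 0, and none passed. Sdha, the flavoprotein that oxidises succinate, measured 347, 257 and 403 CPM in Jag1Ndr/Ndr livers, against 395, 398 and 447 CPM in Jag1+/+ livers. Jag1Ndr/Ndr replicates 1 and 2 lay below all Jag1+/+ livers and replicate 3 within their range (log2 fold change -0.30 ± 0.21, edgeR adjusted p = 0.446). Sdhb, the iron-sulfur subunit, had 205, 84.9 and 166 CPM in Jag1Ndr/Ndr livers, against 168, 148 and 192 CPM in Jag1+/+ livers (log2 fold change -0.16 ± 0.30). The membrane anchors that bind coenzyme Q are encoded by Sdhc, with 132, 79.0 and 118 CPM in Jag1Ndr/Ndr livers, against 117, 118 and 145 CPM in Jag1+/+ livers (log2 fold change -0.22 ± 0.22), and Sdhd, with 295, 143 and 221 CPM in Jag1Ndr/Ndr livers, against 242, 219 and 215 CPM in Jag1+/+ livers (log2 fold change -0.04 ± 0.26). In each of the 4 genes Jag1Ndr/Ndr replicate 2 was the lowest library, and at least 1 other Jag1Ndr/Ndr library lay within or above the Jag1+/+ range.

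The 8 genes of complex III, which passes electrons from coenzyme Q to cytochrome c, had a median log2 fold change of 0.02. Uqcrc2, a core subunit named here after its values were seen, measured 218, 158 and 214 CPM in Jag1Ndr/Ndr replicates 1, 2 and 3, against 263, 225 and 264 CPM in Jag1+/+ replicates 1, 2 and 3. All 3 Jag1Ndr/Ndr livers lay below all 3 Jag1+/+ livers, narrowly at the closest, and the difference did not pass (log2 fold change -0.35 ± 0.19, edgeR adjusted p = 0.321). Uqcrb, which encodes a small subunit that binds coenzyme Q, had the lowest fold change of the complex, with 22.1, 11.2 and 18.2 CPM in Jag1Ndr/Ndr livers, against 31.0, 20.6 and 24.7 CPM in Jag1+/+ livers. Jag1Ndr/Ndr replicate 1 overlapped Jag1+/+ replicate 2 (log2 fold change -0.58 ± 0.27, edgeR adjusted p = 0.247). Uqcrh, the hinge protein that contacts cytochrome c1, had the highest, with 179.6, 67.4 and 111 CPM in Jag1Ndr/Ndr livers, against 123, 89.6 and 99.9 CPM in Jag1+/+ livers (log2 fold change 0.20 ± 0.32). Jag1Ndr/Ndr replicates 1 and 2 were the highest and the lowest of its 6 libraries. The best expressed genes of the complex behaved alike, Uqcrq with 382, 144 and 187 CPM in Jag1Ndr/Ndr livers, against 250.2, 206 and 239 CPM in Jag1+/+ livers (log2 fold change 0.04 ± 0.34) and Uqcr10 with 169, 53.3 and 76.1 CPM in Jag1Ndr/Ndr livers, against 93.3, 83.6 and 86.2 CPM in Jag1+/+ livers (log2 fold change 0.18 ± 0.37). Their order of libraries was that of Uqcrh within the Jag1Ndr/Ndr genotype.

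In complex IV, cytochrome c oxidase, the median of 14 genes was 0.06, and the range of log2 fold changes was the widest of the 5 complexes, from -0.67 to 2.21. Cox7c, at the low end, measured 1.68, 1.47 and 2.19 CPM in Jag1Ndr/Ndr replicates 1, 2 and 3, against 3.30, 2.14 and 3.02 CPM in Jag1+/+ replicates 1, 2 and 3, from 19, 105 and 41 reads in Jag1Ndr/Ndr livers, against 57, 66 and 117 reads in Jag1+/+ livers. Jag1Ndr/Ndr replicate 3 lay just above Jag1+/+ replicate 2, so that the genotypes overlapped (log2 fold change -0.67 ± 0.30, edgeR adjusted p = 0.229). Cox4i1 had 487, 193 and 251 CPM in Jag1Ndr/Ndr livers, against 298, 232 and 251 CPM in Jag1+/+ livers (log2 fold change 0.25 ± 0.33), and Cox6a1 had 229.6, 121 and 169 CPM in Jag1Ndr/Ndr livers, against 213, 159.9 and 177 CPM in Jag1+/+ livers (log2 fold change -0.09 ± 0.25). For both, Jag1Ndr/Ndr replicate 1 was the highest and replicate 2 the lowest of the 6 libraries. The high end belonged to Cox7a1, which is described with the other paralogues below.

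Complex V had a median log2 fold change of 0.01 over 14 genes, 7 on each side of 0, and its smallest adjusted p was 0.497 (edgeR). Atp5b had 1536, 951 and 1374 CPM in Jag1Ndr/Ndr livers, against 1392, 1262 and 1471 CPM in Jag1+/+ livers (log2 fold change -0.10 ± 0.22, 95% interval -0.61 to 0.42). Jag1Ndr/Ndr replicate 1 was the highest and replicate 2 the lowest library. Atp5g3 had 413, 192 and 266 CPM in Jag1Ndr/Ndr livers, against 333, 282 and 311 CPM in Jag1+/+ livers (log2 fold change -0.09 ± 0.27), with the same highest and lowest library. Atp5f1, which encodes a subunit of the peripheral stalk, had the lowest fold change of the complex, with 133, 76.5 and 123 CPM in Jag1Ndr/Ndr livers, against 152, 128 and 129 CPM in Jag1+/+ livers (log2 fold change -0.30 ± 0.22, edgeR adjusted p = 0.497). Atp5g1, a further gene for the c subunit, had the highest, with 31.7, 7.76 and 18.5 CPM in Jag1Ndr/Ndr livers, against 16.0, 13.0 and 17.3 CPM in Jag1+/+ livers (log2 fold change 0.30 ± 0.43, edgeR adjusted p = 0.744). The 3 Jag1Ndr/Ndr livers surrounded the Jag1+/+ livers in Atp5g1, with replicate 2 below and replicates 1 and 3 above them.

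Among the assembly factors of complex I, Ndufaf6 measured 7.45, 5.06 and 7.36 CPM in Jag1Ndr/Ndr replicates 1, 2 and 3, against 8.51, 9.35 and 11.1 CPM in Jag1+/+ replicates 1, 2 and 3. The Jag1Ndr/Ndr livers were all lower than the Jag1+/+ livers, and the difference did not pass over all genes (log2 fold change -0.56 ± 0.22, 95% interval -1.07 to -0.04, edgeR adjusted p = 0.186). Ndufaf1, which acts early in the building of the membrane arm, had 20.6, 13.7 and 18.6 CPM in Jag1Ndr/Ndr livers, against 23.7, 21.4 and 24.5 CPM in Jag1+/+ livers. Its genotypes also did not overlap (log2 fold change -0.41 ± 0.19, edgeR adjusted p = 0.246). Ndufaf4 had the highest value of the 7, 0.26 ± 0.28, and Ndufaf2, the one with the highest RPKM, had -0.09 ± 0.22 on the log2 scale. Atp5s and Atp5sl measured -0.04 ± 0.28 and -0.10 ± 0.23, and the genotypes overlapped in both.

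The clearest pattern lay among the Jag1Ndr/Ndr libraries rather than between the genotypes. On the TMM scale, Jag1Ndr/Ndr replicate 1 was the highest of the 6 libraries for 72 of the 86 genes (26.4% of all genes) and replicate 2 the lowest for 82 (18.8%). Both held for 69 genes (7.36% of all genes). The order of replicates 1, 3 and 2 from high to low held for 79 of the 86 (20.8% of all genes). The ratio of replicate 1 to replicate 2 had a median of 2.11 over the 86 genes and of 0.964 over all genes, and it was at least 2 for 52 of the 86 (6.05% of all genes). The SD of log2 CPM was larger among Jag1Ndr/Ndr than among Jag1+/+ libraries for 84 of the 86 (75.8% of all genes), with medians of 0.55 and 0.18. Among the Jag1+/+ libraries, replicate 2 was the lowest of 3 for 72 of the 86 (29.3% of all genes), at a smaller distance. The summed CPM of most other mitochondrial lists had the same order. In Jag1Ndr/Ndr replicates 1, 2 and 3 it was 2095, 1384 and 2021 for the tricarboxylic acid cycle and 1516, 970 and 1168 for electron carriers and coenzyme Q synthesis. It was 631, 453 and 543 for assembly factors of complexes II to V, 240, 159 and 197 for those of complex I, and 866, 642 and 701 for adenine nucleotide and phosphate carriers and ATP synthase regulators. The regulators of mitochondrial biogenesis had another order, with 318, 323 and 344. These are descriptions of 6 libraries and have no test. Jag1Ndr/Ndr replicate 1 was the shallowest of the 6 libraries (12992592 reads) and replicate 2 the deepest (59653111 reads). By its Xist and Y-linked reads replicate 1 was also male, and replicates 2 and 3 female. The parts of depth and sex in the library order were not tested.

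**Figure D2:**
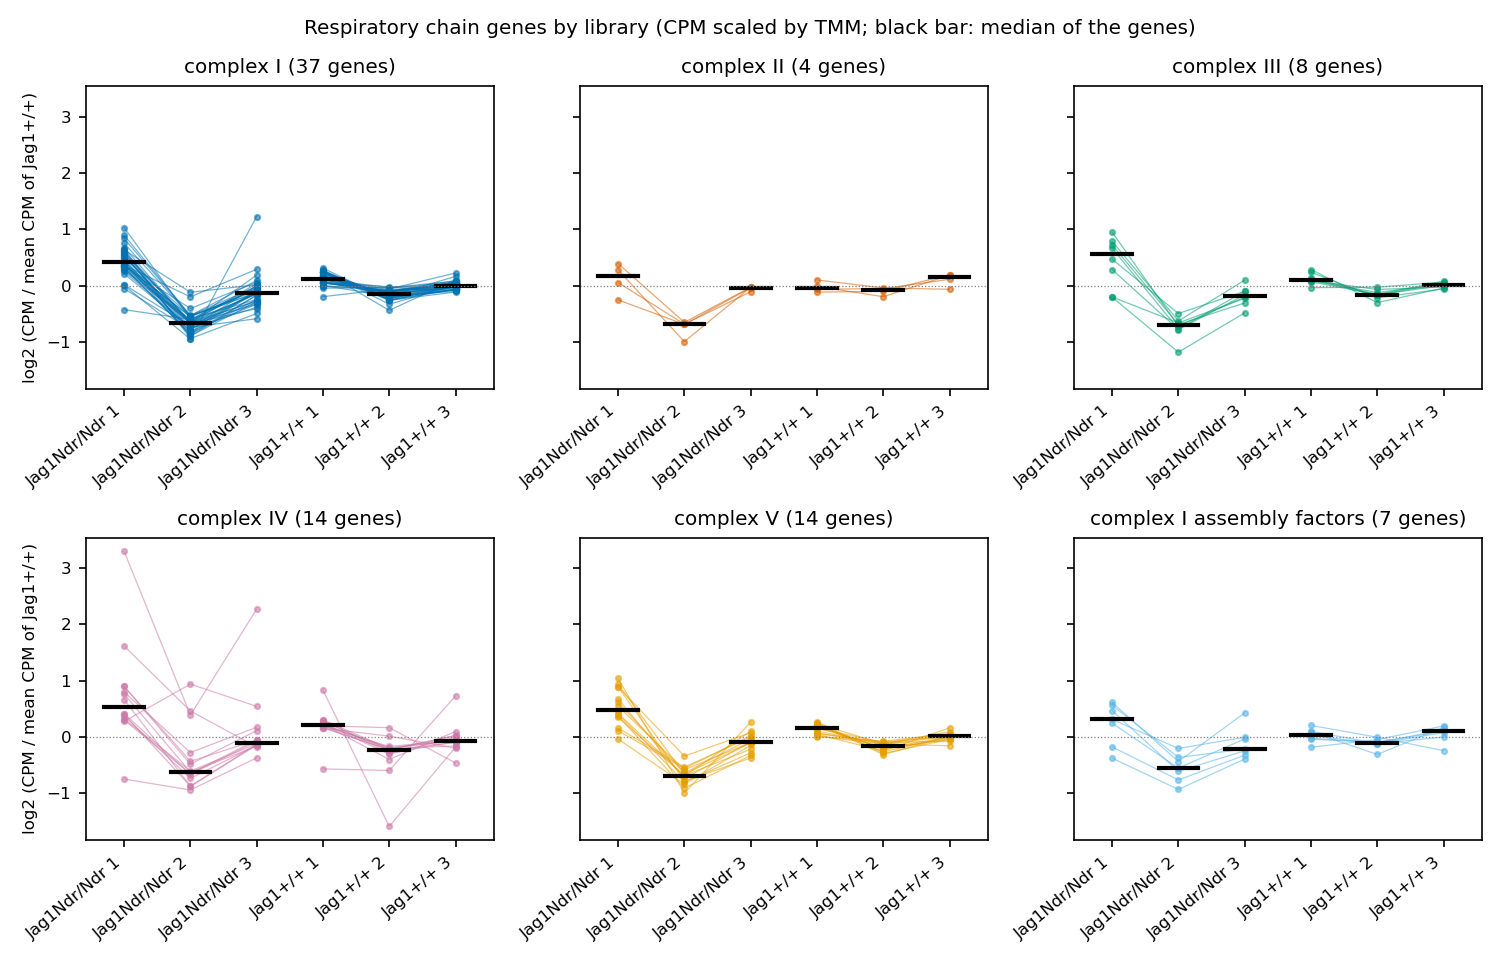
CPM of each tested gene in each library, as log2 of its ratio to the mean of the Jag1+/+ libraries, with 1 line per gene and genotype, a black bar at the median of the genes and 1 panel per complex. In every panel the median of Jag1Ndr/Ndr replicate 1 is the highest and that of replicate 2 the lowest of the 6 libraries.

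The pattern ran through all complexes. The median ratio of replicate 1 to replicate 2 was 2.18 in complex I, 1.86 in complex II, 2.37 in complex III, 2.19 in complex IV, 2.32 in complex V and 1.74 among the 7 assembly factors. Atp5g1 had the highest ratio outside complex IV, 4.09. Only Cox4i2, the form of subunit 4 found mainly in lung, had a ratio below 1, namely 0.632. Jag1Ndr/Ndr replicate 2 was not the lowest library for 4 of the 86 genes, namely Ndufa8, Cox4i2, Cox6b2 and Cox7a1. Of these, Ndufa8, a subunit of complex I named here after its values were seen, measured 118, 69.7 and 76.5 CPM in Jag1Ndr/Ndr livers, against 83.9, 68.5 and 74.7 CPM in Jag1+/+ livers, with replicate 2 close to the lowest Jag1+/+ liver.

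The size of the pattern depended on how libraries were scaled. With CPM from plain library totals, replicate 1 was the highest for 50 of the 86 genes (11.4% of all genes), replicate 2 the lowest for 67 (6.17%), and both held for 41 (1.52%). The median ratio was then 1.53, beside 0.701 over all genes. In the deposited RPKM the counts were 14 (1.50%), 3 (1.19%) and 0 (0.101%), with a median ratio of 0.966, beside 0.441 over all genes. So replicate 1 stood above replicate 2 with either scaling of the counts but not in the deposited RPKM. On each of these scales the median ratio of the chain was above that of all genes by about the same factor, since a change of scale moves all genes of a library alike.

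The ratio also moved with transcript length, as it did across all genes. Gene length as used for RPKM was recovered from the table, and Spearman's rho between it and the ratio of replicate 1 to replicate 2 was -0.46 over the 86 genes and -0.47 over 13775 genes with a recovered length. Genes are not independent replicates, and this correlation across genes in a pair of libraries is a description. For lengths under 700 bases the median ratio was 2.31 over 43 respiratory chain genes and 1.63 over 498 genes in all. From 700 to 1500 bases it was 2.06 over 30 and 1.38 over 2272 genes. Above 1500 bases it was 1.62 over 13 and 0.891 over 11005 genes. The last class has no upper limit, and its 13 respiratory chain genes were 1564 to 3537 bases long, so the genes set beside them were not of like length. The part of length in the library order was not tested.

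**Figure D3:**
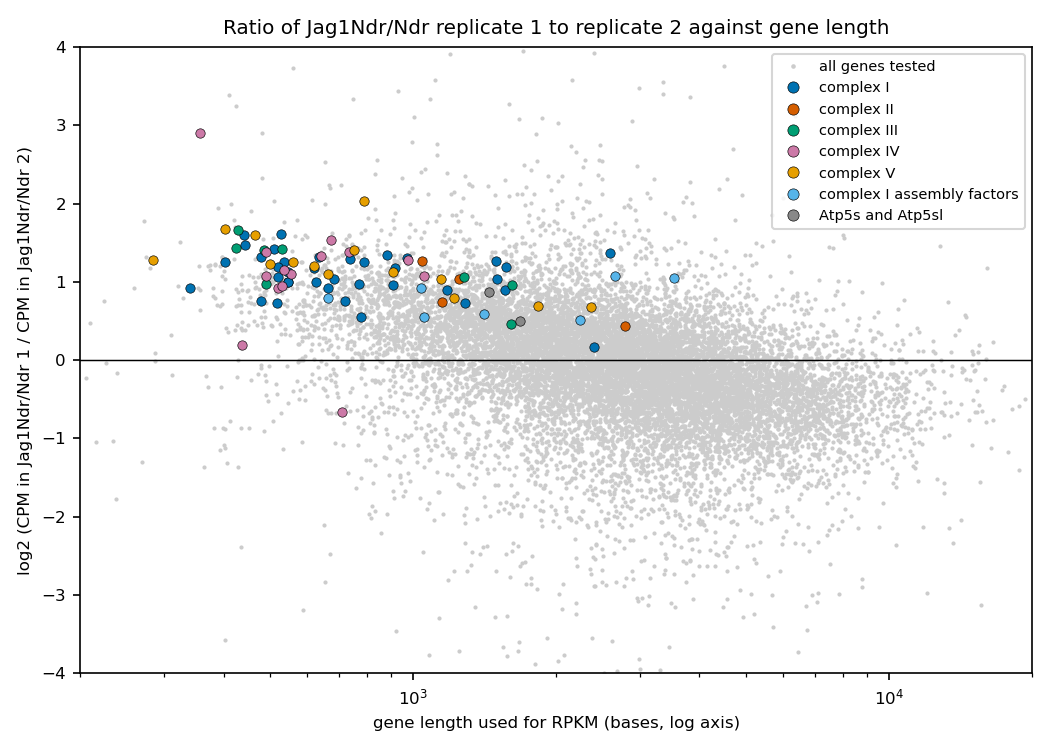
Log2 ratio of CPM in Jag1Ndr/Ndr replicate 1 to replicate 2 against gene length in bases on a log axis, for all genes tested (grey) and the respiratory chain genes (coloured by complex). Most grey points at short lengths lie above 0 and most at long lengths below it, and the coloured points lie above 0 except that of Cox4i2; 81 of 13775 genes fall outside the axes.

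Cell type markers also differed among the Jag1Ndr/Ndr libraries. The 8 hepatocyte markers summed to 184542, 103937 and 122726 CPM in Jag1Ndr/Ndr replicates 1, 2 and 3, against 220984, 223618 and 217309 CPM in Jag1+/+ replicates 1, 2 and 3. Alb alone made up 81.3% of the sum in Jag1Ndr/Ndr replicate 1, and 3 of the 8 markers (Alb, Ttr and Serpina1a) had the order of replicates 1, 3 and 2 from high to low, while Apoa1, Apob, Cps1, Tat and Hnf4a did not. Replicate 2 was the lowest Jag1Ndr/Ndr library for 6 of the 8 markers, all but Apoa1 and Apob. The 7 neutrophil markers found ran the other way, with 1036, 2301 and 1489 CPM in Jag1Ndr/Ndr livers, against 737, 619 and 611 CPM in Jag1+/+ livers, and 4 of the 7 were called higher in Jag1Ndr/Ndr livers. The 8 macrophage markers summed to 2579, 1593 and 1526 CPM in Jag1Ndr/Ndr livers, against 1204, 1030 and 693 CPM in Jag1+/+ livers, with 2 called higher. Of the other lists, 2 of 4 erythroid markers tested were called higher, and 0 of 8 mesenchymal markers. The cholangiocyte markers were mixed. Of 7 tested, Cldn4 and Cldn7 were called higher, Krt7 and Krt19 had log2 fold changes of 0.55 and 0.56, and Spp1, Sox9 and Epcam of -0.83, -0.53 and -0.22. Their list summed to 53.0, 43.0 and 139 CPM in Jag1Ndr/Ndr livers, against 108, 99.6 and 61.3 CPM in Jag1+/+ livers. Of all genes, 4.73% were called higher. The part of these cells in the library order was not tested. In bulk tissue, fewer cells of a type and less RNA per cell cannot be told apart.

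Leaving out either of these libraries moved the whole chain. Without Jag1Ndr/Ndr replicate 1 the median log2 fold change of 87 tested members was -0.36, with 80 of them below 0 (49.7% of all genes). The test then called 1 member, Ndufa7, a complex I subunit, lower (log2 fold change -0.67 ± 0.13, edgeR adjusted p = 0.0290), where 8.47% of all genes were called. At an unadjusted p under 0.05 it picked 20 of the 87 members. The share of all genes was 22.5% in the edgeR fit of all 6 libraries, and the share in this smaller fit is not given here. Without Jag1Ndr/Ndr replicate 2 the median of 85 tested members was 0.20, with 13 below 0 (49.8% of all genes). In that fit Cox7a1 was called higher (log2 fold change 2.76 ± 0.54, edgeR adjusted p = 0.0240), where 7.61% of all genes were called. The direction of the chain's median between genotypes thus rested on which Jag1Ndr/Ndr library was present. Without Jag1+/+ replicates 1, 2 and 3 the medians were 0.04, -0.13 and -0.04.

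Tissue-specific paralogues were rare beside the ubiquitous forms, and Cox7a1 had the largest fold change of the 86 genes. Cox7a1 (chromosome 7, positions 30184171 to 30186030 of GRCm38) encodes the heart and muscle form of complex IV subunit 7a, and Cox7a2 the liver form. Cox7a1 measured 3.37, 0.449 and 1.65 CPM in Jag1Ndr/Ndr replicates 1, 2 and 3, against 0.232, 0.227 and 0.568 CPM in Jag1+/+ replicates 1, 2 and 3, from 38, 32 and 31 reads in Jag1Ndr/Ndr livers, against 4, 7 and 22 reads in Jag1+/+ livers. Jag1Ndr/Ndr replicates 1 and 3 lay above all Jag1+/+ livers, and replicate 2 lay below Jag1+/+ replicate 3, so that the genotypes overlapped. The log2 fold change was 2.21 ± 0.76 (95% interval 0.48 to 3.94) and did not pass (edgeR adjusted p = 0.122). It passed by DESeq2 (2.35, adjusted p = 0.0205), by limma run on log2 of the deposited RPKM plus 0.1 (2.23, adjusted p = 0.0374, where 3.02% of all genes were called) and without Jag1Ndr/Ndr replicate 2. In the deposited RPKM the genotypes did not overlap, with 6.56, 1.91 and 5.54 RPKM in Jag1Ndr/Ndr livers, against 0.599, 0.580 and 1.45 RPKM in Jag1+/+ livers. With the header factors divided out they overlapped, at 8.25, 1.50 and 5.04 RPKM in Jag1Ndr/Ndr livers, against 0.637, 0.610 and 1.52 RPKM in Jag1+/+ livers.

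Even so, Cox7a1 stayed a minor form. Of the summed RPKM of Cox7a1 and Cox7a2 it made up 4.95%, 1.78% and 4.22% in Jag1Ndr/Ndr replicates 1, 2 and 3, against 0.591%, 0.758% and 1.59% in Jag1+/+ replicates 1, 2 and 3. Cox7a2 had 119 ± 11.5 RPKM in Jag1Ndr/Ndr livers and 88.8 ± 12.4 RPKM in Jag1+/+ livers (log2 fold change 0.28 ± 0.32, edgeR adjusted p = 0.672), and Cox7a2l, known for joining complexes III and IV into supercomplexes, had 34.7 ± 1.84 RPKM in Jag1Ndr/Ndr livers and 24.9 ± 3.23 RPKM in Jag1+/+ livers. In counts, Cox7a2l measured 50.2, 23.8 and 32.5 CPM in Jag1Ndr/Ndr livers, against 32.1, 29.1 and 25.1 CPM in Jag1+/+ livers, with overlapping genotypes (log2 fold change 0.29 ± 0.26, edgeR adjusted p = 0.581), and neither gene passed. Of 10 skeletal and heart muscle markers, Myh4 and Mb had 0 reads and Ckm had 3 reads in all. The sum of the 10 was 2.13, 0.786 and 0.693 CPM in Jag1Ndr/Ndr replicates 1, 2 and 3, against 1.45, 1.75 and 0.594 CPM in Jag1+/+ livers. Of 6 brown fat markers, Plin1 had 0 reads, Adipoq 1 and Ucp1 3, while Cidea, a lipid droplet protein, was called higher, with 1.15, 0.884 and 1.12 CPM in Jag1Ndr/Ndr livers, against 0.0579, 0.0649 and 0.0258 CPM in Jag1+/+ livers (log2 fold change 4.35 ± 0.50, edgeR adjusted p = 0.00353). The 6 summed to 22.2, 12.6 and 29.7 CPM in Jag1Ndr/Ndr livers, against 10.3, 15.5 and 14.8 CPM in Jag1+/+ livers, most of it Ppargc1a, and the part of such cells in the Cox7a1 values was not tested.

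The other minor paralogues did not pass the test or were too low for it. Cox6b2, a testis form of subunit 6b, measured 6.65, 2.99 and 1.92 CPM in Jag1Ndr/Ndr livers, against 2.49, 2.43 and 1.58 CPM in Jag1+/+ livers (log2 fold change 0.80 ± 0.45, edgeR adjusted p = 0.350), with Jag1Ndr/Ndr replicate 1 high and the other 5 libraries overlapping. It made up 1.03% to 3.33% of the summed RPKM of Cox6b1 and Cox6b2 over the 6 libraries. Cox4i2 had 0.355, 0.561 and 0.427 CPM in Jag1Ndr/Ndr livers, against 0.521, 0.0974 and 0.258 CPM in Jag1+/+ livers (log2 fold change 0.81 ± 0.58, edgeR adjusted p = 0.473), and its genotypes overlapped. Cox6a2, the heart and muscle form of subunit 6a, had 62 reads in all and was not tested, and Atp5g2, a further c subunit gene, had 41 reads in all, the fewest of the 88. Just outside the limit of 10 reads lay Cox8b, a heart and muscle form, with 4 reads, then Cox7b2, a testis form, with 1, and Cox8c had 0. The fourth gene under the limit, Ndufs5, is an ordinary complex I subunit and is described with the pseudogenes below. Cox7b and Cox8a, the forms found in most tissues, were far higher. Cox7b had 106 ± 14.4 RPKM in Jag1Ndr/Ndr livers and 103 ± 14.6 RPKM in Jag1+/+ livers, with a log2 fold change of -0.11 ± 0.30, and Cox8a had 211 ± 32.0 RPKM in Jag1Ndr/Ndr livers and 194 ± 31.0 RPKM in Jag1+/+ livers, with a log2 fold change of -0.08 ± 0.25. Atp5g3 supplied 93.8% to 96.6% of the summed RPKM of the 3 c subunit genes in every library.

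**Figure D4:**
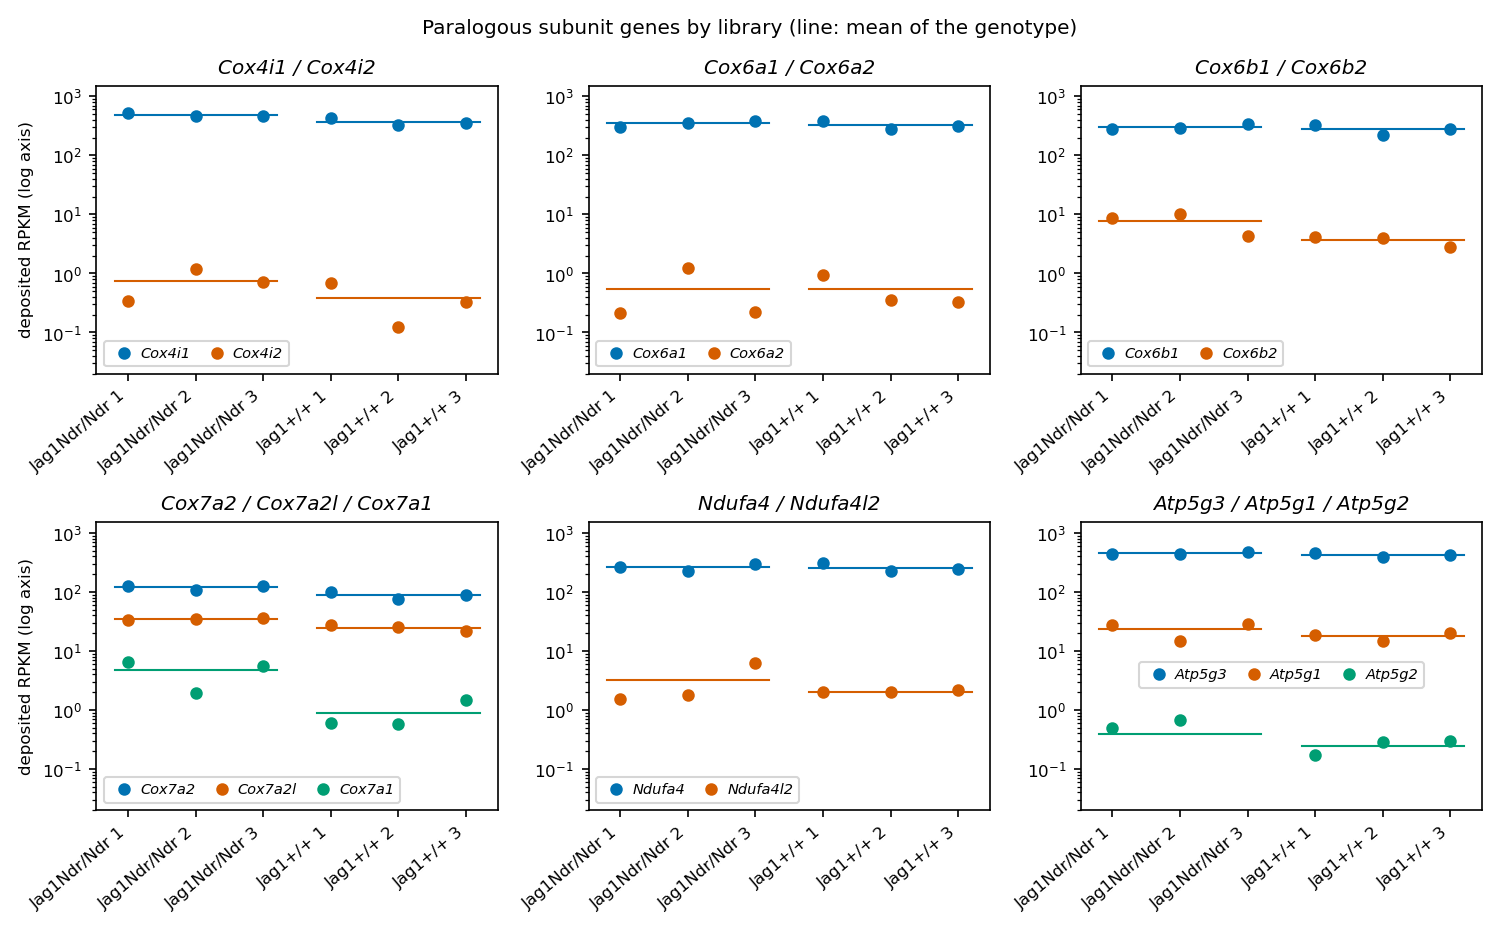
Deposited RPKM of paralogous subunit genes in each library on a log axis (points), with a line at the mean of each genotype. On this scale Cox7a1 is higher in each Jag1Ndr/Ndr library than in each Jag1+/+ library, which does not hold in CPM or with the header factors divided out, while the major forms lie close together in all 6; Atp5g2 had 0 reads in Jag1Ndr/Ndr replicate 3 and has no point there, but its mean includes the 0.

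Many nuclear genes of the chain are known targets of the factors NRF1, of ETS factors such as GABP and of YY1, so their promoters were searched for the words GCGCATGCG (NRF1), CCGGAAG (ETS) and AAGATGGCG (YY1) on both strands. RefSeq windows of 250 bases before to 50 after a gene's start (GRCm38.p6) were found for 73 of the 88 genes, 79 windows in all. NRF1 words lay in 10 of the 79 windows (12.7%), against 1.75% of 32851 windows of all genes, ETS words in 17 (21.5%), against 8.86%, and YY1 words in 9 (11.4%), against 1.40%. A match is a description of the letters and not a site. Cox6a1 and Atp5j are shown as windows that hold more than 1 of the words, and Cox7a1, the gene with the largest fold change, as a window that held none. Capitals mark the words found. In Cox6a1 the NRF1 word lies on both strands, overlapping itself, and the ETS word lies on the opposite strand. The other Atp5j window held none of the words.
Cox6a1 promoter, chr5:115348909-115349208, minus strand: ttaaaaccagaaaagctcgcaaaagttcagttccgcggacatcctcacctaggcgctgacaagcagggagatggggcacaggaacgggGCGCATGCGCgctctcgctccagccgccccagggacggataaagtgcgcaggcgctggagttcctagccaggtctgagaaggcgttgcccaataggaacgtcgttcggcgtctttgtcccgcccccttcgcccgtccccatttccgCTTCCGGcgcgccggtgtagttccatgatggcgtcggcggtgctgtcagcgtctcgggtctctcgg
Atp5j promoter, chr16:84834927-84835226, minus strand: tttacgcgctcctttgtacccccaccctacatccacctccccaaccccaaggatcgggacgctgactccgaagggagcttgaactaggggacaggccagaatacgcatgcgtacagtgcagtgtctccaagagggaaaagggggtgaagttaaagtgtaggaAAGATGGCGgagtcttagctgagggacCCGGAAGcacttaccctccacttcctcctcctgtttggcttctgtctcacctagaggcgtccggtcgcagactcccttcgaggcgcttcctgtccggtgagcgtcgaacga
Cox7a1 promoter, chr7:30183921-30184220, plus strand: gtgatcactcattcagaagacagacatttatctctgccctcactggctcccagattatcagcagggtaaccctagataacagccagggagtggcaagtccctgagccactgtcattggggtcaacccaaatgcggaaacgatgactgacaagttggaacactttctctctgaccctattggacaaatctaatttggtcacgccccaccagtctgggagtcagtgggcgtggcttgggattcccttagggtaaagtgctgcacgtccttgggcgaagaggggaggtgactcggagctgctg

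None of the genes for such factors passed the test. Of 16 regulators of mitochondrial biogenesis measured, 0 were called in either direction (7.63% of all genes), with a median log2 fold change of -0.25. Nrf1 had 21.1, 19.4 and 17.6 CPM in Jag1Ndr/Ndr livers, against 16.5, 15.0 and 14.9 CPM in Jag1+/+ livers (log2 fold change 0.32 ± 0.15, edgeR adjusted p = 0.260). Its Jag1Ndr/Ndr livers all lay above the Jag1+/+ livers, and 29.0% of all genes had no overlap between the genotypes. Gabpa, which encodes the DNA-binding subunit of GABP, had 21.7, 45.6 and 39.6 CPM in Jag1Ndr/Ndr livers, against 40.5, 44.1 and 48.3 CPM in Jag1+/+ livers (log2 fold change -0.31 ± 0.25, edgeR adjusted p = 0.549). Yy1 had 18.8, 28.3 and 28.5 CPM in Jag1Ndr/Ndr livers, against 28.0, 28.5 and 30.3 CPM in Jag1+/+ livers (log2 fold change -0.20 ± 0.18, edgeR adjusted p = 0.611). In Jag1Ndr/Ndr replicate 1, Nrf1 was the highest of the 6 libraries, and Gabpa and Yy1 were the lowest. The part of these factors in the library order was not tested. Ppargc1a, a coactivator that drives mitochondrial genes, had 20.7, 11.7 and 28.5 CPM in Jag1Ndr/Ndr livers, against 10.2, 15.4 and 14.7 CPM in Jag1+/+ livers, with the Jag1Ndr/Ndr livers on both sides of the Jag1+/+ range (log2 fold change 0.58 ± 0.32, edgeR adjusted p = 0.337). Tfam had 44.3, 37.2 and 39.5 CPM in Jag1Ndr/Ndr livers, against 61.5, 51.9 and 56.2 CPM in Jag1+/+ livers, without overlap. It had the smallest adjusted p of the 16 regulators (log2 fold change -0.49 ± 0.14, edgeR adjusted p = 0.0781). The genes of this paragraph were named after their values were seen.

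Some subunit genes had a measured level far below that of other subunits of their complex, and several of their transcripts share long stretches with processed pseudogenes in the GENCODE vM21 annotation. At least 35% of the 50-base windows of the transcript recurred in a pseudogene for 8 of the 79 genes named for a complex, and the mean RPKM of those 8 had a median of 15.7 (0.319 to 42.1), against 105 (0.546 to 721) for the other 71. The limit of 35% and the genes named for it were chosen after the values were seen. The percentage was taken over the longest matched transcript of each gene. For Ndufab1 and Atp5g1 this transcript had 3479 and 4715 bases, against recovered lengths of 779 and 788 bases. Their percentages of 12.3% and 8.29%, which placed them among the 71, may thus be too low for the length counted. Cox7c had a mean of 5.24 RPKM with 53.0% of its windows shared, Ndufb4 had 3.72 RPKM with 37.0%, and Atp5l had 10.1 RPKM with 68.5%. Ndufs5, with 1 read in all, shared 41.2% of the windows of its 525-base transcript with a pseudogene, and the length recovered from its RPKM was 24.3 bases, so that its count does not show an absence of expression. For Cox7c and Ndufb4 every base of the coding sequence lay in such a window. The sources used here do not give how the authors' counting treated reads that map to several places. The levels and differences of these genes, with those of Ndufa12, Ndufs3, Uqcrb, Atp5h, Atp5g2, Ndufab1 and Atp5g1, are thus uncertain. The part of pseudogenes in them was not tested. The coding sequence of Cox7c (189 bases, without the stop codon) is shown because it holds no stretch that sets it apart from a pseudogene at this window length, which also held for the 387 bases of Ndufb4. Capitals mark bases in shared windows, which here are all bases.
Cox7c coding sequence, chromosome 13: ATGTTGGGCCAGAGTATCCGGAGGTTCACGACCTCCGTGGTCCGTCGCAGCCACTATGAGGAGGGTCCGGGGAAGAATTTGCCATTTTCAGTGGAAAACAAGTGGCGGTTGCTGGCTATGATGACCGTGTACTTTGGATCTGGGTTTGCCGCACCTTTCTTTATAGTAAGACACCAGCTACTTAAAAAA

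**Figure D5:**
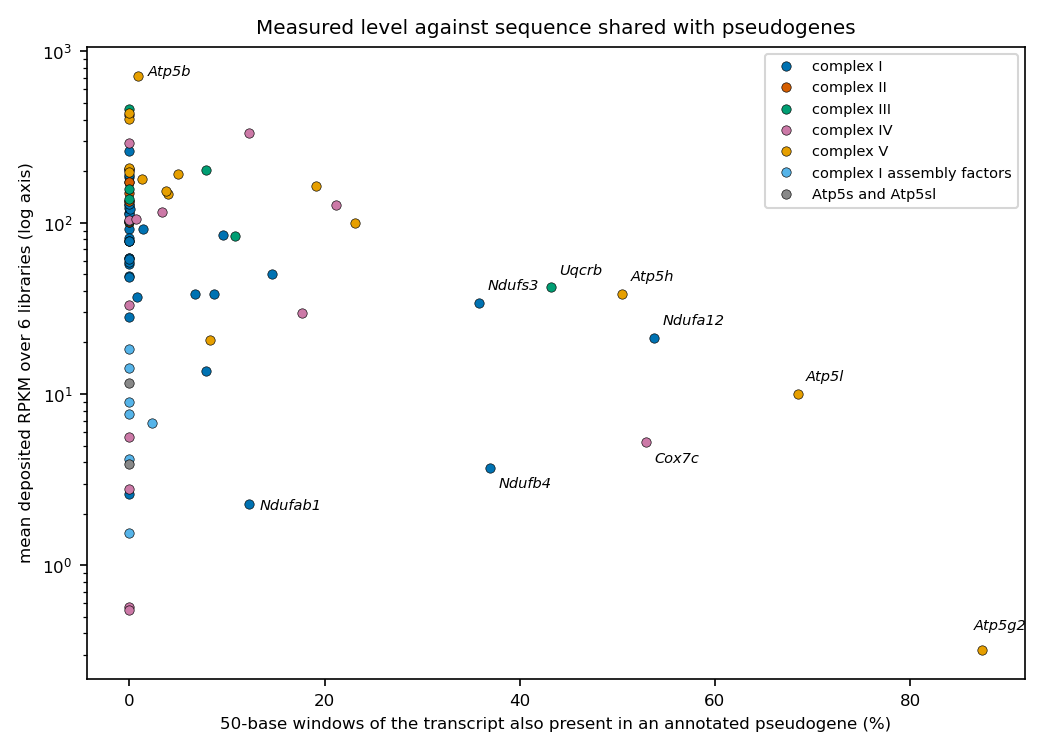
Mean deposited RPKM over the 6 libraries on a log axis against the percentage of 50-base windows of the transcript that also occur in an annotated pseudogene, for the 88 genes, coloured by complex. Genes with at least 35% shared lie at 42.1 RPKM or below, while genes with little or none run from 0.546 to 721 RPKM.

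The libraries were made with a kit that does not keep the strand, so reads where a gene overlaps another on the opposite strand cannot be assigned. Such overlaps took up 41.7% of the exon bases of Cox5a, 39.0% of Ndufb6, 30.0% of Ndufa13 and 26.6% of Uqcrc2, and the values of these genes may hold reads of their neighbours. Cox4i1 shared 20.1% of its exon bases with Emc8, and Atp5f1 21.0% with Wdr77.

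Genes that work with the chain showed few calls, all of them lower in Jag1Ndr/Ndr livers. Taken over all these lists, the calls were near the background, where 2.90% of all genes were called lower. Of 19 electron carriers and coenzyme Q synthesis genes, 2 passed and both were lower. Adck3, an atypical kinase of coenzyme Q synthesis, measured 194, 110.1 and 195 CPM in Jag1Ndr/Ndr livers, against 371, 357 and 361 CPM in Jag1+/+ livers. The Jag1Ndr/Ndr livers lay far below the Jag1+/+ livers (log2 fold change -1.13 ± 0.24, edgeR adjusted p = 0.0279). Etfdh, which feeds electrons from fatty acid and amino acid oxidation to coenzyme Q, measured 183, 237 and 214 CPM in Jag1Ndr/Ndr livers, against 364, 341 and 372 CPM in Jag1+/+ livers. All 3 Jag1Ndr/Ndr livers were lower (log2 fold change -0.77 ± 0.17, edgeR adjusted p = 0.0331). Of 30 assembly factors of complexes II to V tested, 1 passed, Uqcc1, which is needed to build complex III. It measured 23.1, 20.7 and 26.4 CPM in Jag1Ndr/Ndr livers, against 38.0, 37.1 and 42.8 CPM in Jag1+/+ livers (log2 fold change -0.75 ± 0.15, edgeR adjusted p = 0.0237), with no overlap. None of the 3 calls held without any 1 of the Jag1+/+ libraries (edgeR adjusted p from 0.0827 to 0.143), with sex as a covariate (0.0529 to 0.0663) or in the deposited RPKM (limma), and those of Etfdh and Uqcc1 did not hold with plain library totals. Etfdh also missed the threshold without Jag1Ndr/Ndr replicate 3 (edgeR adjusted p = 0.0659). Without a Jag1+/+ library the log2 fold changes stayed near their size, from -1.14 to -1.11 for Adck3, -0.81 to -0.75 for Etfdh and -0.80 to -0.69 for Uqcc1, and with sex as a covariate they were -1.09, -0.83 and -0.74.

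The remaining lists gave no calls. They were the 14 complex I assembly factors (7 of them among the genes above), with a median log2 fold change of -0.13, the 13 genes of the tricarboxylic acid cycle, with -0.08, and the 8 tested of 10 adenine nucleotide and phosphate carriers and ATP synthase regulators, with 0.30. The assembly factors of complexes II to V had a median of -0.21 and the electron carriers and coenzyme Q genes one of -0.18. Beside the 2.90% of all genes called lower, 3 lower calls among 100 genes tested in these 6 lists is near the background.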

How the data were processed

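RNA from a single lobe of liver at postnatal day 10 (3 Jag1Ndr/Ndr and 3 Jag1+/+ libraries) was made into unstranded poly(A) libraries, per the labels' protocols. STAR and the genome build mm10 are named in the submitters' processing notes, while the sources used here do not give the program that counted reads. The deposited table holds read counts and RPKM for RefSeq entries, and per the file headers the RPKM of each library carries a TMM factor (0.796, 1.28 and 1.10 in Jag1Ndr/Ndr, 0.940, 0.952 and 0.952 in Jag1+/+ replicates 1 to 3). Of the RPKM of 11559 entries with at least 20 reads in each library, 94.6% were within 2% of proportional to reads over the library total once divided by that factor, and 33.2% when multiplied by it. Depth ran from 12992592 to 59653111 reads, and 93 spike-in and eGFP entries (5 reads in all) were left out.

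Genotypes were compared on the counts with edgeR 4.0.16 (R 4.3.3; TMM, filterByExpr, quasi-likelihood test, Benjamini-Hochberg over 13819 genes, threshold 0.05), and errors of log2 fold changes are standard errors from that test. The fit was tested on simulated data. Alternatives were DESeq2 1.42.0, library totals, RLE factors, other filters, limma 3.58.1 on log2 of RPKM plus a pseudocount of 1 or 0.1, a replicate block, sex as a covariate and leaving out each library. On the log2 scale with a pseudocount, changes of low genes are understated.

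Members, gene lists and tests were chosen with earlier results of these data known. The genes named were those past the threshold, the best expressed pair and the largest fold change in each direction per complex, all of complex II, fixed paralogue sets, genes next to the limit of 10 reads, and called genes of the pathway lists, and exceptions are marked. Promoters are from RefSeq (GRCm38.p6), and shared 50-base windows, coding sequences and overlaps from GENCODE vM21 transcripts.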

Additional observations from a re-analysis of the deposited data

How the results depend on the processing

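Over 15 alternatives, the 33 named genes tested gave 490 values, of which 63, in 22 genes, had the other sign. The numbers of genes called over all genes tested were 1890 by DESeq2, 211 and 418 by limma on RPKM with pseudocounts of 1 and 0.1, and 596 with sex as a covariate, beside 1054. Leaving out 1 library gave 282 to 1211, with 342, 282 and 319 without Jag1+/+ replicates 1, 2 and 3. The numbers without Jag1Ndr/Ndr replicates 1, 2 and 3 were 1211, 1034 and 890. The cause of these differences was not tested. Of the respiratory chain genes, 1 (Cox7a1) was called higher by DESeq2 and by limma with a pseudocount of 0.1, and 0 to 1 higher and 0 to 1 lower when 1 library was left out. Those were Cox7a1 without Jag1Ndr/Ndr replicate 2 and Ndufa7 without replicate 1. The other alternatives called 0 of them, with 1 to 5 at an unadjusted p under 0.05 outside the fit without Jag1Ndr/Ndr replicate 1. In the edgeR fit of all 6 libraries, 22.5% of all genes had such a p. Without Jag1Ndr/Ndr replicate 1 the log2 fold changes of Uqcr10 and Uqcrq were -0.45 and -0.49, against 0.49 and 0.31 without replicate 2, the extremes of the fits that left out a library. The median of complex III was then -0.44. The ratio of summed levels was 0.956 in CPM in place of 1.10 in RPKM. Library totals moved the median log2 fold change of all genes to 0.13 and limma on RPKM to 0.18 and 0.22, where the respiratory chain had 0.03, 0.15 and 0.15.

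Replicates of the same number are not stated to be paired. Their deviations correlated by 0.0856, 0.170 and 0.195, and each library correlated best with its own number, a hint from the data only. With the replicate number as a block, 1430 genes were called, 0 of them in the respiratory chain, whose median was -0.10. Depth limits genes with few reads, such as Cox7a1, which rests on 4 to 38 reads per library.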
